A study of Mus musculus with 12 samples.

Results

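The 9 genes described here encode the proteins that bring T cell precursors into the thymus, place thymocytes within it and let mature cells leave: the chemokine receptors Ccr9, Ccr7, Ccr4 and Cxcr4, the sphingosine 1-phosphate receptor S1pr1, the transcription factor Klf2, the integrin chains Itgb7 and Itgae, and the selectin ligand Selplg. They were taken by name, as the probe set with 1 gene symbol and the highest mean over all arrays. Each of the 9 had exactly 1 such probe set, so all 9 are reported, out of 19309 genes measured. No filter on low values was applied.

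Total RNA from the thymus of FVB/N mice was measured on 12 arrays. There were 4 Dnmt3a-deficient tumors, which are MYC-induced T-cell lymphomas taken at the terminal stage from mice whose hematopoietic cells lacked Dnmt3a, an enzyme that places new methyl groups on DNA. There were 5 control tumors, MYC-induced lymphomas of terminal animals with the genotype label wild type, and 3 samples of normal thymocytes from wild-type mice with the age label 24 dpn. MYC is common to both tumor groups and absent from the normal group's labels. The labels used here name neither the Cre driver, nor the promoter of the MYC transgene, nor the age of the tumor-bearing animals, so age and tumor state cannot be told apart. Nor do they say whether the arrays of a group are different animals; the p-values therefore cover only the spread seen among these arrays, which may be technical.

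A developing thymocyte changes its receptors as it moves. Immature cells in the cortex carry CCR9 and CXCR4, whose ligands CCL25 and CXCL12 are made by thymic stroma. After positive selection, CCR7 and CCR4 draw cells into the medulla. In the last step the factor KLF2 switches on S1PR1, and cells follow sphingosine 1-phosphate (S1P), a lipid that is abundant in blood, out of the thymus. Integrins and the selectin ligand PSGL-1 (Selplg) provide adhesion: PSGL-1 binds P-selectin at thymic entry, and the beta 7 chain (Itgb7) pairs with alpha 4 (Itga4) or with alpha E (Itgae), the partner that binds E-cadherin on epithelium.

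Promoters of 5 of the 9 genes (Ccr9, Itgb7, Klf2, Cxcr4 and Ccr4) were matched in a RefSeq table of build GRCm38.p6, as the 250 bases before the gene start. The windows of Ccr9, Itgb7 and Klf2 are shown. Ccr9 had the largest difference from normal thymocytes. Itgb7 and Klf2 were correlated across the 9 tumors (Pearson r = 0.744), which did not pass adjustment over 36 pairs (exact permutation, adjusted p = 0.221). Capitals mark CACCC or its reverse complement GGGTG, the core bound by KLF factors. Searched on both strands with overlaps counted, 52.0% of 32851 promoter windows of this length held it at least once and 2.14% at least 4 times. Each of the 5 windows held it: 4 times in Itgb7 and 1 time in each of the others. None held CACGTG, the E-box bound by MYC and MAX, which 6.02% of windows held. A match is a run of letters and not evidence of binding. In the letters below, each window reads 5′ to 3′ on the strand of its gene.
Ccr9, chr9:123766961-123767210, plus strand: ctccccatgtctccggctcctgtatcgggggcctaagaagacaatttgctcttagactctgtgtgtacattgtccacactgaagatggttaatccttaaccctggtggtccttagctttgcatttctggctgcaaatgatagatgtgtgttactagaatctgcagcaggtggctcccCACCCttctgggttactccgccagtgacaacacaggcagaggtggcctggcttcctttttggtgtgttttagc
Itgb7, chr15:102231936-102232185, minus strand: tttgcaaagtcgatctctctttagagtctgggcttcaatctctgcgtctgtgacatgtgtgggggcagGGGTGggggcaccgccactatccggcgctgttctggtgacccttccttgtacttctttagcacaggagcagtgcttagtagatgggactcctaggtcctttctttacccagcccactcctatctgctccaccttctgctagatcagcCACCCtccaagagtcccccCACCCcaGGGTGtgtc
Klf2, chr8:72318812-72319061, plus strand: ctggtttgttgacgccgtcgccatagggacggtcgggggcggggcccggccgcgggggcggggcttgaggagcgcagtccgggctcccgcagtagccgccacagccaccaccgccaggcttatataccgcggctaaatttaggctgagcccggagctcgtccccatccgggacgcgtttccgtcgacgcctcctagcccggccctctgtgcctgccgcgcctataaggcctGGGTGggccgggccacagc
The windows also differed in CG dinucleotides, the sites that DNA methyltransferases modify. Klf2 had 29 and Cxcr4 had 19, against a median of 6 over all windows, while Itgb7 had 5 and Ccr9 and Ccr4 had 3 each. Methylation itself was not measured on these arrays.

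Dnmt3a was lower by log2 1.25 in the deficient than in the control tumors (SE 0.229, limma adjusted p = 0.0317), a call that leaving out single arrays could end (adjusted p up to 0.108, without deficient tumor 3). The T cell identity of the samples was checked with 13 T lineage surface markers. Their mean log2 level was 9.76 to 10.28 in deficient and 10.20 to 10.72 in control tumors, against 11.46 to 11.53 in normal thymocytes. Of the 13 markers, limma called 8 lower in deficient and 7 in control tumors, beside 19.0% and 11.3% of all genes. For 11 of the 13 every deficient tumor lay below every normal sample, and for 12 every control tumor did, beside 26.7% and 14.0% of all genes. The median difference of the 13 was -1.15 in deficient and -1.01 in control tumors. Cd3e, the least reduced of the 13 in deficient tumors (-0.15), was called in neither and stood at 10.35 or higher on every array. In control tumors Cd3e was -0.67 (limma adjusted p = 0.0875), and -1.07 without control tumors 1 and 2 (adjusted p = 4.3e-04). The 75th percentile of all probe sets was 8.51 to 8.54 in control tumors 1 and 2 and 8.50 to 8.60 in the deficient tumors, against 8.25 to 8.30 in the other control tumors. The mean of 9 neutrophil markers was 8.12 and 7.87 in control tumors 3 and 4, against 5.33 to 5.93 in deficient tumors, 5.63 to 5.75 in the other control tumors and 6.32 to 6.73 in normal thymocytes. The mean of 7 adipocyte markers was 8.23 in control tumor 2, against 5.40 to 5.82 on the other 11 arrays.

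Homing and egress genes were called lower in lymphomas than in normal thymocytes or not called at all. In Dnmt3a-deficient tumors 5 of 9 fell (Ccr9, Ccr7, Cxcr4, Itgae and Selplg; limma, adjusted p under 0.05 over all 19309 genes). Over all genes 37.6% were called in that comparison, 19.0% lower. For 4 of the 9 every deficient tumor lay below every normal sample, as for 26.7% of all genes. In control tumors 6 of 9 fell: those 5 and Itgb7. Over all genes 24.4% were called in that comparison, 11.3% lower. For 6 of the 9 every control tumor lay below every normal sample, as for 14.0% of all genes. The median log2 difference of the 9 genes was -1.26 in deficient and -1.15 in control tumors, beside -0.10 and -0.08 over all genes. Both comparisons use the same 3 normal arrays, so they are not separate evidence. In bulk RNA, fewer cells that express a gene and less RNA per cell cannot be told apart.

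**Figure D1:**
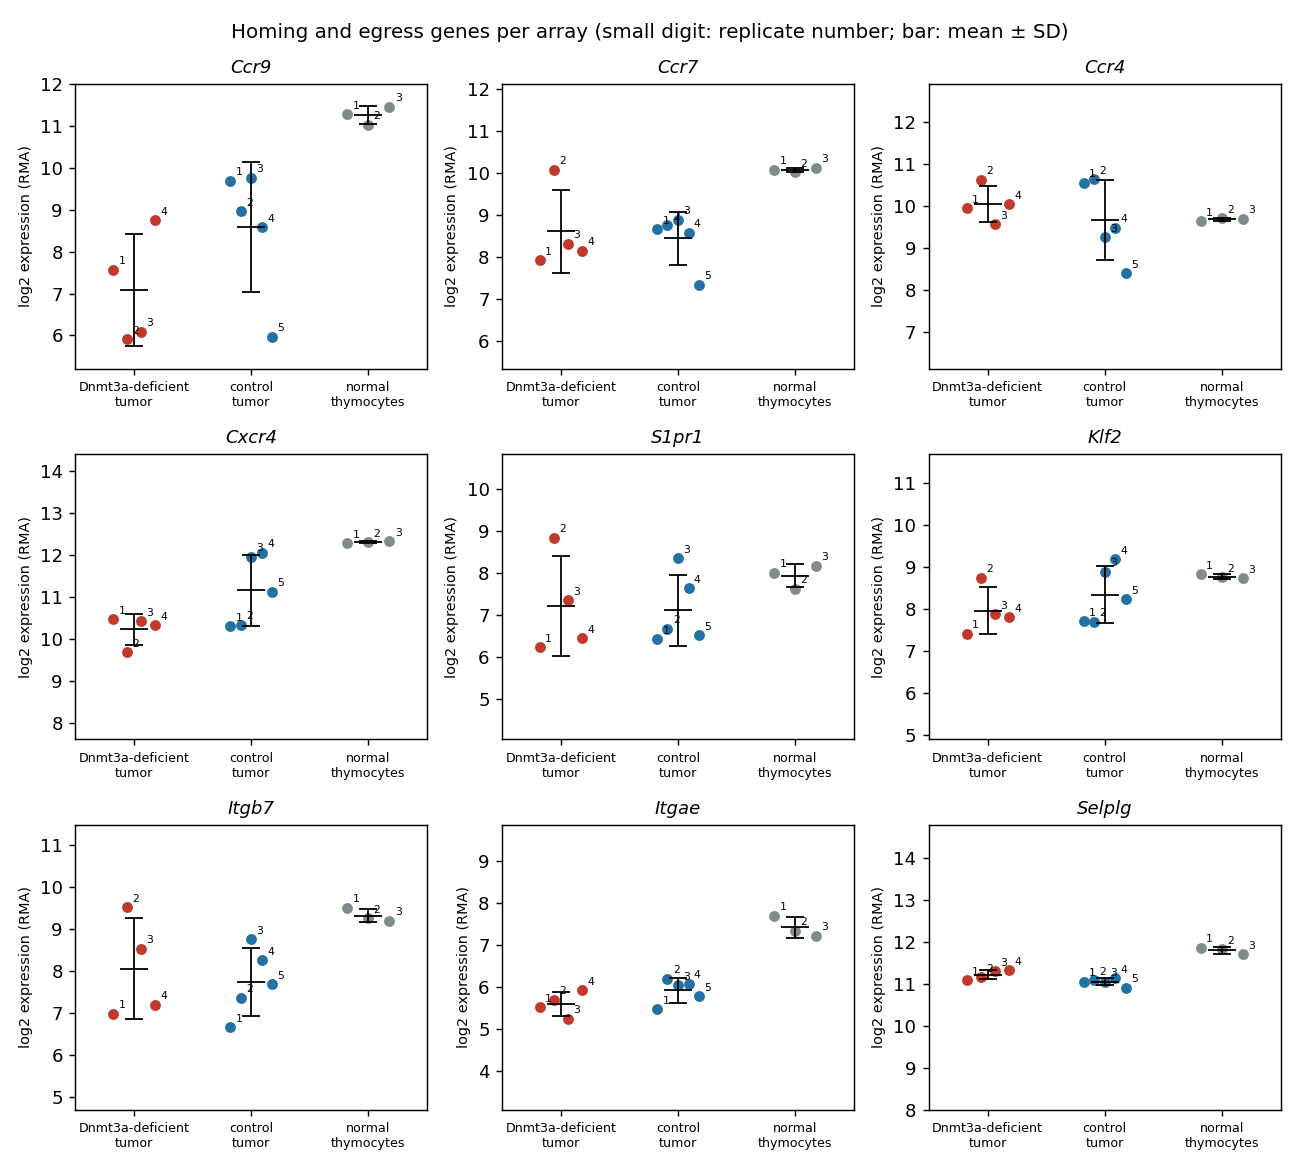
Log2 expression (RMA) of each of the 9 genes on every array, by group (Dnmt3a-deficient tumors, control tumors, normal thymocytes). Small digits are replicate numbers, black bars mean ± SD, and every panel spans the same number of log2 units. Normal thymocytes lie close together in every panel, while tumors spread widely for Ccr9, S1pr1 and Itgb7 and little for Itgae and Selplg.

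Ccr9, the receptor for CCL25, showed the largest difference of the 9. Its log2 level was 7.57, 5.91, 6.09 and 8.75 in deficient tumors 1 to 4, 9.69, 8.96, 9.76, 8.59 and 5.97 in control tumors 1 to 5, and 11.28, 11.03 and 11.45 in normal thymocytes. Every tumor of either group lay below every normal sample, and deficient tumors 2 and 3 and control tumor 5 were the lowest. Against normal thymocytes the difference was -4.17 in deficient tumors (SE 0.824, adjusted p = 0.00156), rank 5 of 19309 genes from the lowest. In control tumors it was -2.66 (SE 0.788, adjusted p = 0.0255), 6.31-fold lower, and not called without any 1 of the normal samples (adjusted p = 0.0682 to 0.0828). Ccr9 averaged 7.08 ± 1.34 in deficient tumors (SD, n = 4) and 8.59 ± 1.55 in control tumors (SD, n = 5). That difference of -1.51 (95% interval -3.07 to 0.05) did not pass the threshold (adjusted p = 0.260, exact two-sided permutation p = 0.151). Control tumors 4 and 5 lay within the range of the deficient tumors.

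Cxcr4, the receptor for CXCL12 that holds immature thymocytes in the cortex, separated the control tumors into unequal levels. It stood at 10.48, 9.70, 10.43 and 10.33 in deficient tumors 1 to 4 and at 10.31, 10.34, 11.96, 12.06 and 11.13 in control tumors 1 to 5. Normal thymocytes had 12.29, 12.31 and 12.33. All tumors lay below the normal samples, control tumors 1 and 2 lay among the deficient tumors, and control tumors 3 and 4 came closest to the normal mean, at -0.35 and -0.25 from it. The difference from normal thymocytes was -2.08 in deficient tumors (SE 0.395, adjusted p = 0.00118) and -1.15 in control tumors (SE 0.377, adjusted p = 0.0407). The second was called in 10 of 22 alternatives and became -0.59 without control tumors 1 and 2 (adjusted p = 0.118). Between the tumor groups it was -0.93 (SE 0.346), not called (limma unadjusted p = 0.0189, adjusted p = 0.169, exact two-sided permutation p = 0.111). Control tumors 3 and 4, the highest for Cxcr4, are also those with high neutrophil markers. Control tumor 5, next highest, lacked these. The 75th percentile of all probe sets was 8.25 to 8.30 in control tumors 3, 4 and 5, against 8.51 to 8.54 in control tumors 1 and 2. The part of either in the Cxcr4 level was not tested. Without control tumors 3 and 4 the deficient minus control difference of Cxcr4 was -0.36 (adjusted p = 0.620). The control minus normal difference was then -1.72 (adjusted p = 6.6e-04).

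Ccr7, the receptor for CCL19 and CCL21 that guides cells to the medulla, was below the normal samples in all tumors but 1. Its level was 7.93, 10.08, 8.32 and 8.16 in deficient tumors 1 to 4 and 8.68, 8.76, 8.90, 8.58 and 7.35 in control tumors 1 to 5, against 10.09, 10.03 and 10.13 in normal thymocytes. Deficient tumor 2 lay inside the narrow normal range, and control tumor 5 lay lowest of all. The difference from normal was -1.46 in deficient tumors (SE 0.460, adjusted p = 0.0237) and -1.63 in control tumors (SE 0.440, adjusted p = 0.0153). Without deficient tumor 2 the first became -1.95 (adjusted p = 7.1e-04); without deficient tumor 1, 3 or 4 it was not called (adjusted p = 0.0659, 0.0568 and 0.0657). Without any 1 of the normal samples neither was called (adjusted p = 0.0608 to 0.0662 in deficient and 0.0509 to 0.0517 in control tumors). The tumor groups did not differ by the test (0.17, 95% interval -0.70 to 1.04, adjusted p = 0.842).

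Ccr4, the receptor for CCL17 and CCL22, did not fall. It read 9.95, 10.62, 9.57 and 10.04 in deficient tumors 1 to 4, 10.56, 10.64, 9.25, 9.48 and 8.39 in control tumors 1 to 5, and 9.63, 9.70 and 9.70 in normal thymocytes. Tumors lay on both sides of the normal samples: deficient tumor 2 and control tumors 1 and 2 were highest and control tumor 5 was lowest. Differences from normal were 0.37 in deficient tumors (95% interval -0.59 to 1.32, adjusted p = 0.545) and -0.01 in control tumors (-0.92 to 0.90, adjusted p = 0.987), the second -0.64 without control tumors 1 and 2 (adjusted p = 0.136). Between tumor groups the difference was 0.38 (-0.46 to 1.22, adjusted p = 0.603). Across the 9 tumors Ccr4 and Cxcr4 ran in opposite directions (Pearson r = -0.672, exact permutation p = 0.0479; Spearman rho = -0.817, p = 0.0108; r = -0.700 without control tumors 3 and 5). That relation did not pass adjustment over the 36 pairs of the 9 genes (adjusted p = 0.345 and 0.166).

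S1pr1, the receptor that mature thymocytes need to leave, varied more among tumors than between groups. Its level was 6.22, 8.84, 7.35 and 6.44 in deficient tumors 1 to 4 and 6.41, 6.66, 8.35, 7.64 and 6.51 in control tumors 1 to 5, against 7.9998, 7.62 and 8.17 in normal thymocytes. Deficient tumor 2 and control tumor 3 exceeded every normal sample, control tumor 4 fell inside the normal range, and the other 6 tumors lay below it. No group difference was called: -0.72 between deficient tumors and normal thymocytes (SE 0.577, adjusted p = 0.350), -0.82 between control tumors and normal thymocytes (SE 0.552, adjusted p = 0.317) and 0.10 between the tumor groups (95% interval -0.995 to 1.19, adjusted p = 0.933). The first became -1.26 without deficient tumor 2 (adjusted p = 0.0537), -0.39 without deficient tumor 1 (adjusted p = 0.643) and -0.46 without deficient tumor 4 (adjusted p = 0.603). The second became -1.41 without control tumors 3 and 4 (adjusted p = 0.0748) and -0.44 without control tumors 1 and 2 (adjusted p = 0.666).

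Klf2, the factor that activates S1pr1, showed a like division. Its level was 7.41, 8.75, 7.88 and 7.80 in deficient tumors 1 to 4 and 7.70, 7.70, 8.88, 9.19 and 8.23 in control tumors 1 to 5, against 8.83, 8.76 and 8.73 in normal thymocytes. Deficient tumor 2 matched the normal samples, control tumors 3 and 4 exceeded them, and the other 6 tumors lay below. The difference from normal was -0.81 in deficient tumors (SE 0.369, adjusted p = 0.100) and -0.43 in control tumors (SE 0.353, adjusted p = 0.416), neither called. Without deficient tumor 2 the first became -1.08 (adjusted p = 0.0317). Without control tumors 3 and 4, those with high neutrophil markers, the second became -0.90 (adjusted p = 0.0420). Between tumor groups Klf2 differed by -0.38 (95% interval -1.08 to 0.32, adjusted p = 0.526), and by -0.81 without control tumors 1 and 2 (adjusted p = 0.0592).

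Itgb7, the beta 7 integrin chain, read 6.98, 9.52, 8.53 and 7.19 in deficient tumors 1 to 4, 6.65, 7.36, 8.75, 8.25 and 7.68 in control tumors 1 to 5, and 9.51, 9.25 and 9.20 in normal thymocytes. Deficient tumor 2 alone reached the level of the normal samples, and control tumor 1 was lowest. Control tumors differed from normal thymocytes by -1.58 (SE 0.540, adjusted p = 0.0484), a call close to the threshold that ended in 13 of 22 alternatives, with adjusted p-values from 0.0173 to 0.172 (the highest without control tumors 1 and 2). Deficient tumors differed from normal thymocytes by -1.26 (SE 0.565, adjusted p = 0.0959), and by -1.75 without deficient tumor 2 (adjusted p = 0.0155). With the same normal arrays, a call in control tumors and none in deficient tumors does not show that the groups differ: their difference was 0.32 (95% interval -0.75 to 1.39, adjusted p = 0.748).

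Itgae, the alpha E chain also called CD103, behaved alike in all tumors. Its level was 5.51, 5.69, 5.24 and 5.93 in deficient tumors 1 to 4 and 5.47, 6.20, 6.05, 6.08 and 5.78 in control tumors 1 to 5, against 7.69, 7.34 and 7.22 in normal thymocytes. All 9 tumors lay at least 1 log2 unit below the lowest normal sample. The difference was -1.82 in deficient tumors (SE 0.208, adjusted p = 2.5e-05) and -1.50 in control tumors (SE 0.199, adjusted p = 1.2e-04). Both held in every alternative in which Itgae was tested, but the filter on dim genes left Itgae out. Its mean stood at percentile 35.0 of all genes in deficient and 39.4 in control tumors, against 65.7 in normal thymocytes. Whether such low levels narrowed its spread among tumors was not tested. The tumor groups differed by -0.32 (95% interval -0.72 to 0.07, adjusted p = 0.332).

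Selplg, which encodes PSGL-1, fell by a small and even amount. It read 11.09, 11.16, 11.30 and 11.33 in deficient tumors 1 to 4 and 11.05, 11.09, 11.06, 11.13 and 10.91 in control tumors 1 to 5, against 11.87, 11.82 and 11.70 in normal thymocytes. No tumor overlapped the normal samples. The difference was -0.58 in deficient tumors (SE 0.123, adjusted p = 0.00255), 1.49-fold lower, and -0.75 in control tumors (SE 0.118, adjusted p = 4.3e-04), 1.68-fold lower. Between tumor groups it was 0.17 (95% interval -0.06 to 0.40). The exact two-sided permutation p, unadjusted, was 0.0317. The limma p was 0.136 unadjusted and 0.382 adjusted, so the difference was not called.

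**Figure D2:**
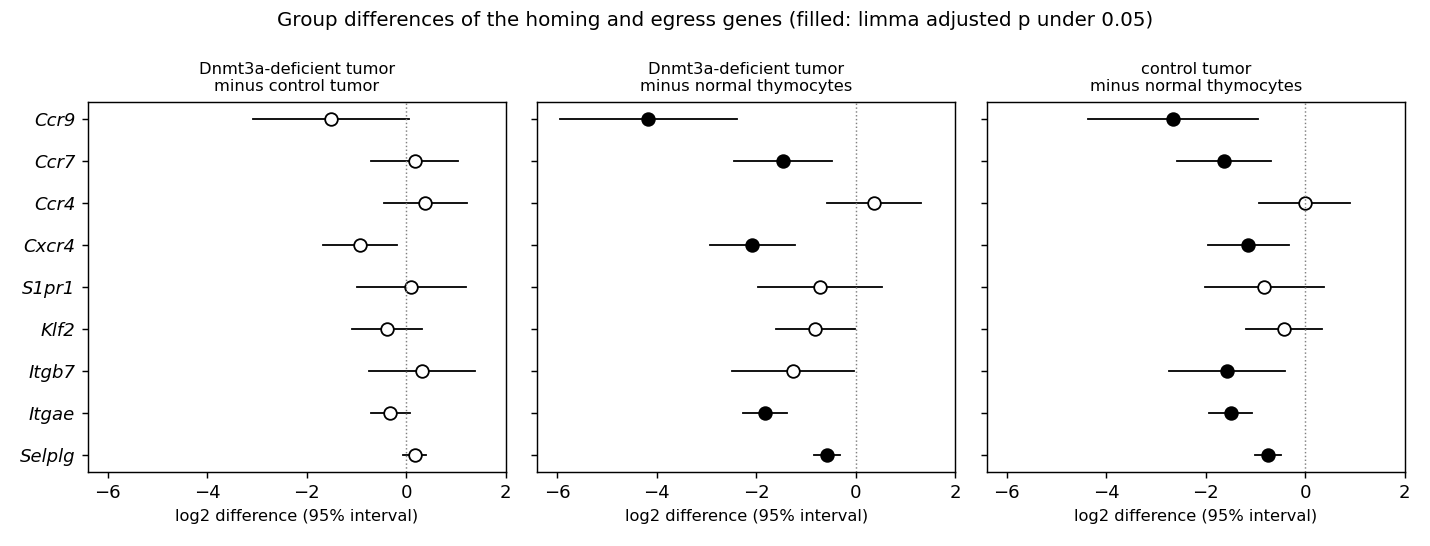
Log2 differences of the 9 genes in the 3 comparisons, with 95% intervals from limma and a filled point where the adjusted p was under 0.05. No gene was called between Dnmt3a-deficient and control tumors, 5 were lower in deficient tumors and 6 in control tumors than in normal thymocytes, and the widest intervals belong to Ccr9.

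The comparison of Dnmt3a-deficient with control tumors asks what the loss of the enzyme adds to a MYC lymphoma. None of the 9 genes was called by limma, 1 (Cxcr4) had an unadjusted limma p under 0.05, and no gene had groups that did not overlap. Over all genes 0.818% were called, 20.2% had an unadjusted limma p under 0.05, and in 6.15% the groups did not overlap. By exact permutation, unadjusted, Selplg (p = 0.0317) and not Cxcr4 (p = 0.111) was under 0.05. The 9 differences ran from -1.51 (Ccr9) to 0.38 (Ccr4), with a median of 0.10. Without control tumors 1 and 2, left out for the likeness given above, Ccr4 (1.00, adjusted p = 0.0175) and Cxcr4 (-1.48, adjusted p = 0.00103) were called, as were 25.3% of all genes. Leaving out arrays for that likeness favors larger differences. The 95% intervals of Ccr9, Cxcr4 and Klf2 reached below a difference of -1, and those of Ccr7, Ccr4, S1pr1 and Itgb7 above 1.

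Tumors differed from each other more than normal samples did. For 7 of the 9 genes, all but Itgae and Selplg, the SD was at least 2 times that of normal thymocytes in both tumor groups, as it was for 19.7% of all genes. The normal SD rests on 3 arrays. Deficient tumor 2 was set apart from the other deficient tumors: it had the highest Ccr7, S1pr1 and Itgb7 of the 9 tumors and the lowest Ccr9 and Cxcr4. It also had 8.23 for Cd8a and 8.80 for Cd4, against 10.98 to 11.37 and 9.89 to 10.80 in the other deficient tumors. The mean of 11 double-positive stage genes was 6.98 in it against 8.36 to 9.10 in those and 10.36 to 10.53 in normal thymocytes. The mean of 10 mature thymocyte stage genes was 8.82 in it against 7.99 to 8.03 and 9.254 to 9.585. Control tumor 5 had the lowest Ccr7, Ccr4 and Selplg, with Cd8a at 7.60. Its double-positive stage mean was 6.98 and its mature stage mean 8.20, against 7.662 to 9.185 and 8.332 to 8.807 in the other control tumors. Its Cd4 was 10.43, inside the 10.06 to 11.61 of the other control tumors. These stage genes were read beside the homing genes; their part in the homing gene levels was not tested.

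**Figure D3:**
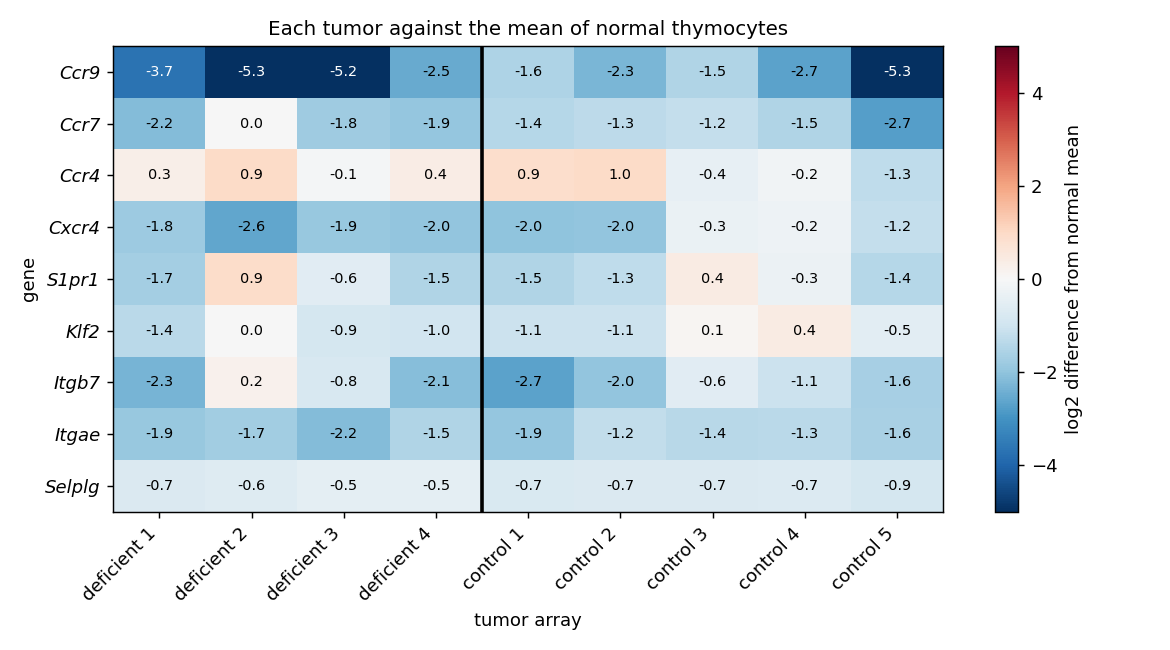
Each tumor's log2 level minus the mean of the 3 normal thymocyte samples, for the 9 genes (rows) and the 4 Dnmt3a-deficient and 5 control tumors (columns); blue is lower and red higher than normal. Ccr9, Cxcr4, Itgae and Selplg are blue in all 9 tumors, Cxcr4 only faintly in control tumors 3 and 4. S1pr1, Klf2 and Itgb7 are near or above 0 in deficient tumor 2. All 3 are higher in control tumors 3 and 4 than in control tumors 1 and 2, with Klf2 above 0 in both and S1pr1 in control tumor 3.

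Among the 36 pairs of these genes, S1pr1 and Itgb7 were the most alike across the 9 tumors. Pearson's r was 0.947 (exact permutation p = 2.0e-04, adjusted over 36 pairs p = 0.00734) and Spearman's rho was 0.950 (exact permutation p = 3.5e-04, adjusted p = 0.0127). Without deficient tumor 2 and control tumor 3, the 2 tumors farthest from the median of S1pr1, r was 0.882. It was 0.954 for deviations from each group's mean. S1pr1 and Klf2 had r = 0.800 (exact permutation p = 0.0114, adjusted p = 0.137) and rho = 0.800 (p = 0.0138, adjusted p = 0.166), with r = 0.765 without the same 2 tumors. Klf2 and Itgb7 had r = 0.744 (exact permutation p = 0.0246, adjusted p = 0.221) and rho = 0.767 (p = 0.0214, adjusted p = 0.193), with r = 0.837 without control tumors 3 and 4. Ccr9 showed no such relation (r = -0.435 with Itgb7, exact permutation p = 0.236, adjusted p = 0.712; rho = -0.350; r = -0.233 without deficient tumor 2 and control tumor 5). The S1pr1 and Itgb7 pair alone passed adjustment. The arrays share scaling and cell makeup, which were not separated here.

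**Figure D4:**
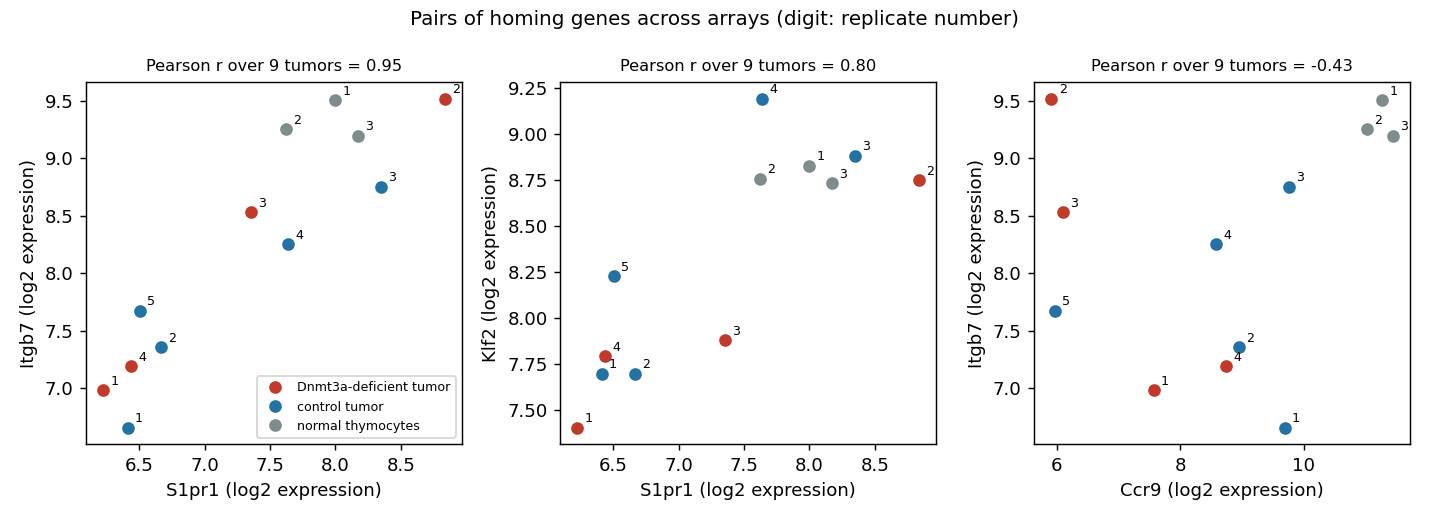
Log2 expression of 3 pairs of genes on all 12 arrays, colored by group, with replicate numbers beside the points. S1pr1 and Itgb7 rise together across the tumors (r = 0.947), S1pr1 and Klf2 do so more loosely (r = 0.800), and Ccr9 and Itgb7 do not (r = -0.435); r is over the 9 tumors.

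The genes whose pattern was most like each of the 9 were sought among 16926 named genes by Pearson's r over the 12 arrays, as a description. For S1pr1 they were Ppp1r27 (0.869; 0.846 over the 9 tumors) and Cd53 (0.866; 0.853). For Klf2 they were Ppp1r27 again (0.955; 0.947) and Ptpn1 (0.950; 0.964), and for Itgb7 Anxa2 (0.952; 0.926) and Ptgir (0.941; 0.926). Ccr9 was nearest to Lipa (0.930; 0.839) and Pisd-ps2 (0.927; 0.854), Ccr7 to Lsp1 (0.950; 0.928) and Pag1 (0.928; 0.923), and Ccr4 to Kif1b (0.957; 0.966) and Brap (0.932; 0.950). Cxcr4 was nearest to Fam83c (0.978; 0.956) and Cnot8 (0.972; 0.954). For Itgae (Plcl1, 0.971; Tmem9b, 0.968) and Selplg (Ogfr, 0.978; Cdc42se2, 0.971) the likeness was smaller over the tumors alone, at 0.832, 0.718, 0.803 and 0.829.

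The surroundings of these genes were read from 7 lists of 103 other genes of chemotaxis, adhesion and egress, of which 96 were measured. In deficient tumors 24 (25.0%) were lower and 6 (6.25%) higher than in normal thymocytes, where 19.0% of all genes were lower and 18.7% higher. In control tumors 22 (22.9%) were lower and 4 (4.17%) higher, where 11.3% of all genes were lower and 13.0% higher. The medians were -0.15 and -0.23, beside -0.10 and -0.08 over all genes.

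Of 15 other chemokine receptors 1 (6.67%) fell in each tumor group, beside 19.0% of all genes in deficient and 11.3% in control tumors. It was the scavenging receptor Ackr2 (-0.54 in deficient, adjusted p = 0.00570; -0.57 in control tumors, adjusted p = 0.00409). Of 5 thymic ligands, 2 (40.0%) fell in each, beside the same 19.0% and 11.3% of all genes. These were Ccl22, a ligand of CCR4 (-1.52, adjusted p = 0.00319; -1.01, adjusted p = 0.0339), and Cxcl12, the ligand of CXCR4 (-0.46, adjusted p = 0.00945; -0.53, adjusted p = 0.00432). Ackr2 and Cxcl12 were dim, with means over all arrays at percentiles 29.5 and 33.6 of all genes. Ackr2 averaged 5.35 in deficient and 5.31 in control tumors against 5.88 in normal thymocytes, and Cxcl12 5.57 and 5.50 against 6.03. The filter on dim genes left out both, and Ccl22 at percentile 45.8. In deficient tumors the calls of Ackr2 and Cxcl12 ended under cyclic loess scaling (adjusted p = 0.132 and 0.244), and in control tumors that of Ccl22 ended without single arrays (adjusted p up to 0.156, without normal thymocytes 1). Ccl25, the ligand of CCR9, did not pass the test (0.13 in both, adjusted p = 0.715 and 0.753). Markers of thymic epithelium, which makes several of these ligands, had 2 of 8 lower in deficient tumors and 1 of 8 lower in control tumors. Of all genes 19.0% and 11.3% were lower. The list means were 5.88 to 6.64 and 5.77 to 6.18 against 6.29 to 6.42 in normal thymocytes. The part of thymic epithelium in the ligand levels was not tested.

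Of 12 genes of S1P receptors and metabolism, 3 (25.0%) fell in deficient tumors and 1 (8.33%) in control tumors, near the 19.0% and 11.3% of all genes. Spns2, an S1P exporter, fell in both (-0.71, adjusted p = 0.00227; -0.62, adjusted p = 0.00584). S1pr4, a further S1P receptor, fell in deficient tumors (-1.32, adjusted p = 0.00951), with -0.85 in control tumors (adjusted p = 0.0820). Sgpl1, the lyase that degrades S1P, fell in deficient tumors (-1.23, adjusted p = 0.0207; up to 0.0584 without normal thymocytes 2), with -0.94 in control tumors (adjusted p = 0.0742). Cd69, whose product pulls S1PR1 off the cell surface, did not pass the test (-0.06, adjusted p = 0.927; 0.22, adjusted p = 0.749). Of 8 KLF, FOXO and target genes, Klf3 alone fell, with -1.38 in deficient tumors (adjusted p = 0.0128) and -2.56 in control tumors (adjusted p = 2.2e-04). The tumor groups differed for Klf3 by 1.18, not called (adjusted p = 0.105).

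Among 21 integrins and partners, 7 fell and 3 rose in deficient tumors, and 8 fell and 2 rose in control tumors. The shares that fell, 33.3% and 38.1%, stand beside 19.0% and 11.3% of all genes, and the shares that rose, 14.3% and 9.52%, beside 18.7% and 13.0%. Itga4, the other partner of Itgb7, rose where Itgb7 and Itgae did not: it had 10.68, 11.27, 10.57 and 9.10 in deficient tumors 1 to 4 and 9.46, 8.70, 9.83, 9.63 and 10.33 in control tumors 1 to 5, against 8.22, 7.28 and 8.35 in normal thymocytes. No tumor overlapped the normal samples. The difference was 2.45 in deficient tumors (SE 0.467, adjusted p = 0.00119) and 1.64 in control tumors (SE 0.446, adjusted p = 0.0161; 0.103 without normal thymocytes 2 and 0.0560 without control tumors 3 and 4). Both chains of the integrin LFA-1 fell, Itgal (-2.20 in deficient and -1.88 in control tumors, adjusted p = 4.9e-04 and 0.00166) and Itgb2 (-2.32 and -1.58, adjusted p = 2.1e-04 and 0.00344), as did its ligand Icam2 (-1.40 and -1.78, adjusted p = 1.7e-04 and 3.0e-05). Itgb2 is also carried by myeloid cells. The macrophage list had 3 of 7 markers higher in deficient and 1 of 7 in control tumors, beside 18.7% and 13.0% of all genes. Control tumors 3 and 4, with high neutrophil markers, had 9.49 and 10.55 for Itgb2. Control tumors 1, 2 and 5, without them, had 9.27, 9.21 and 10.39. The part of myeloid cells in the Itgb2 level was not tested.

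Of 11 genes of selectins and selectin ligand synthesis, 2 fell and 1 rose in deficient tumors and 2 fell in control tumors. The share that fell, 18.2% in both groups, stands beside 19.0% and 11.3% of all genes. The 9.09% that rose in deficient tumors stands beside 18.7%. Tpst1, which adds the sulfate that PSGL-1 needs to bind P-selectin, rose in deficient tumors (1.30, SE 0.219, adjusted p = 5.0e-04), with 0.57 in control tumors (adjusted p = 0.0650). The sialyltransferase St3gal6 (-0.65, adjusted p = 0.0223; -0.85, adjusted p = 0.00549) and Spn, the sialomucin CD43 (-0.83, adjusted p = 0.0240; -0.83, adjusted p = 0.0289), fell in both, and the calls of Spn in both groups and of St3gal6 in deficient tumors ended without single arrays (adjusted p up to 0.101 for Spn in control tumors, without normal thymocytes 3; Spn there was -0.50 without control tumors 1 and 2, adjusted p = 0.0962). In chemotaxis signaling 8 of 24 fell and 2 rose in deficient tumors, and 7 fell and 2 rose in control tumors. The shares that fell, 33.3% and 29.2%, stand beside 19.0% and 11.3% of all genes. Those that rose, 8.33% in both groups, stand beside 18.7% and 13.0%. Coro1a, an actin regulator needed for thymic egress, fell (-2.21, adjusted p = 0.00106; -1.26, adjusted p = 0.0339, up to 0.114 without normal thymocytes 2; -0.63, adjusted p = 0.0553, without control tumors 1 and 2), as did Rgs14, a brake on G protein signaling (-1.60, adjusted p = 7.1e-05; -1.44, adjusted p = 1.7e-04). Rgs1, another brake, rose in deficient tumors (1.91, adjusted p = 0.00325), with 1.07 in control tumors (adjusted p = 0.0719). Gnai3, an inhibitory G protein alpha chain, rose in control tumors (1.79, adjusted p = 0.00473), with 0.50 in deficient tumors (adjusted p = 0.367).

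**Figure D5:**
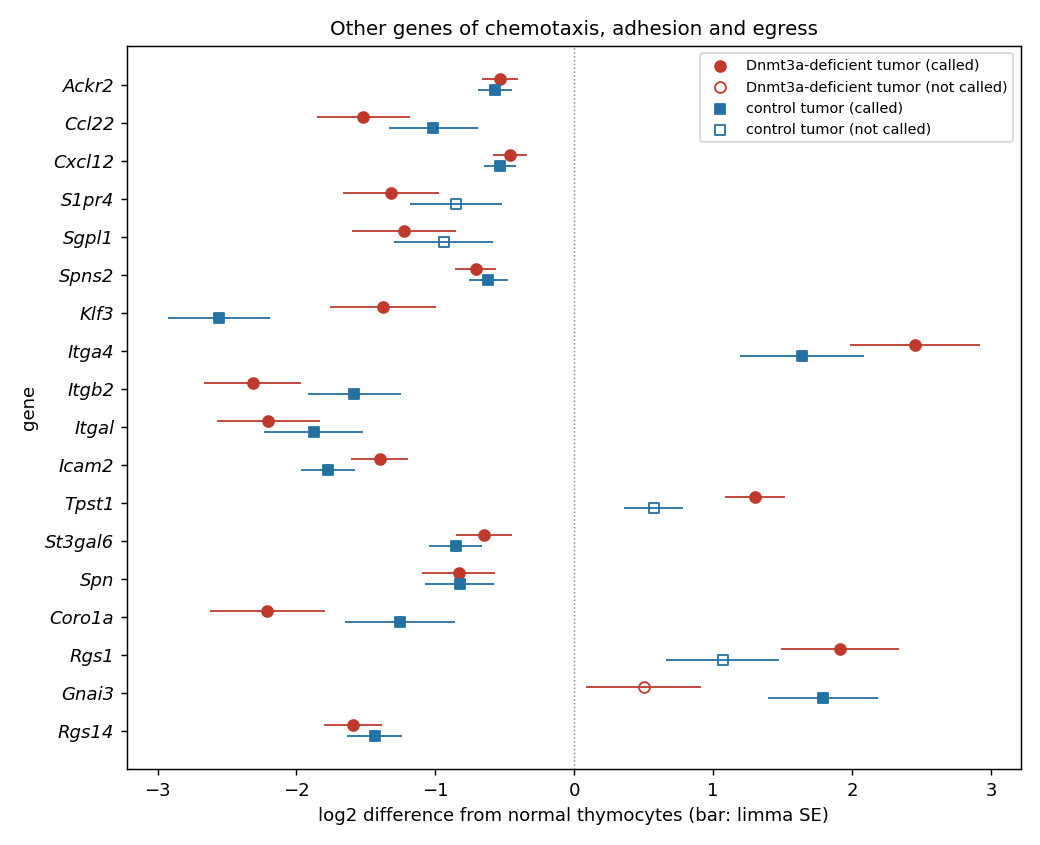
Log2 difference from normal thymocytes of 18 other genes of chemotaxis, adhesion and egress, in Dnmt3a-deficient tumors (circles) and control tumors (squares), with limma SE bars; filled symbols had an adjusted p under 0.05. Itga4 lies to the right in both tumor groups (2.45 and 1.64), while Itgal, Itgb2, Icam2 and Klf3 lie to the left.

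Between the tumor groups 1 of the 96 genes was higher in deficient tumors and 1 lower, beside 0.818% called over all genes. An unadjusted p under 0.05 was found for 20 (20.8%), close to the 20.2% of all genes. The first was Itga6, the laminin-binding alpha 6 integrin chain, at 9.29, 9.03, 9.76 and 9.25 in deficient tumors 1 to 4 against 8.72, 8.65, 7.79, 7.54 and 8.06 in control tumors 1 to 5 (difference 1.18, SE 0.246, adjusted p = 0.0477). The second was Gng2, a G protein gamma chain (-0.97, SE 0.201, adjusted p = 0.0477). The groups did not overlap for either gene, and both were named after their values were seen. Both calls ended in 14 and 12 of 23 alternatives, with adjusted p-values up to 0.261 for Itga6 and 0.247 for Gng2, each without control tumors 3 and 4. The other named genes were not called between the tumor groups, Itga4 among them (0.81, adjusted p = 0.280). Without control tumors 1 and 2, when 25.3% of all genes were called, 7 of the 18 plotted genes were: S1pr4, Klf3, Itgb2, Tpst1, Coro1a, Rgs1 and Gnai3. Their adjusted p-values ran from 2.6e-04 (Coro1a, -1.59) to 0.0203 (Klf3, 1.18), with 3.7e-04 for Gnai3 (-1.86). Without control tumors 3 and 4, when limma called 6 of all 19309 genes, none of the 18 was among them. In control tumors against normal thymocytes, S1pr4, Sgpl1 and Tpst1 were called without control tumors 3 and 4 (adjusted p = 0.0228, 0.0124 and 0.00824), and Ccl22 was not without control tumors 1 and 2 (adjusted p = 0.0655).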

How the data were processed

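The authors deposited log2 expression per probe set. The submitters' processing notes name RMA and Affymetrix Expression Console, with no version. RMA corrects background, normalizes quantiles and summarises probes, yet upper quartiles differ between arrays, as given above; normal thymocytes had 8.13 to 8.21. Values were used without further scaling.

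Of 23858 probe sets 20870 had 1 gene symbol (1453 several, 1535 none; both left out). Symbols were updated through gene identifiers for 20822 of them. The probe set with the highest mean was kept, which left 19309 genes.

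Limma 3.58.1 in R 4.3.3 was fitted with 3 group means to all 12 arrays (9 residual and 4.17 prior degrees of freedom). Each two-sided p was adjusted by Benjamini-Hochberg across the 19309 genes, and called means an adjusted p under 0.05. A difference is the mean log2 value of the group named first less that of the other. The fit was tested on simulated data. Array number limits the precision.

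The 9 genes, the lists and the rule for named genes (all 9; up to 4 called genes per list by size; the 2 most alike per gene; Dnmt3a) were chosen with earlier results of these data known. Some of the named list genes are printed, with Itga6, Gng2, Ccl25, Cd69, Cd3e, Cd4 and Cd8a added after values were seen. Alternatives were other scalings, a filter on dim genes, limma-trend, array weights, probe set averaging, a replicate block, tumor arrays alone, arrays left out and a 2-fold rule. The labels do not say that replicate numbers shared between groups pair the arrays. Correlations of same-numbered deviations ran from -0.134 to 0.338. Differently numbered arrays were not compared, so these values cannot decide whether arrays were paired.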

Additional observations from a re-analysis of the deposited data

Results flagged for a closer look

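Ccr7 in control tumor 5 stood apart from the other control tumors, at 7.35 against 8.58 in the next lowest. That gap was 0.797 of the group's range, above Dixon's critical value of 0.710 for 5 samples. Of 18 groups of 4 or 5 samples examined this was the only one, and chance flags about 1 in 20. Without control tumor 5 the Ccr7 difference between control tumors and normal thymocytes was smaller, at -1.36, and still called.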

How the results depend on the processing

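No gene of the 9 reversed direction with a call. Between Dnmt3a-deficient and control tumors the count of 0 called became 1 with array weights (Cxcr4) and 2 without control tumors 1 and 2 (Ccr4 and Cxcr4), and stayed 0 in the other alternatives, the replicate block and every fit that left out 1 array included. Against normal thymocytes the count of 5 in deficient tumors ran from 4 to 7 over single arrays left out, and was 5 with the replicate block. In control tumors the count of 6 ran from 2 to 6, and was 2 without any 1 of the normal samples, when Ccr9, Ccr7, Cxcr4 and Itgb7 were not called (adjusted p 0.0509 to 0.134) with 2 normal arrays left in the fit; with the replicate block it was 5, without Itgb7 (adjusted p = 0.0856). It was 4 after median centring, with array weights and without control tumors 1 and 2, and 7 without control tumors 3 and 4. The labels do not say that the replicate numbers pair the arrays. Of all genes, 158 were called between the tumor groups, against 378 after median centring, 3328 with array weights, 4886 without control tumors 1 and 2, 6 without control tumors 3 and 4, 1 in the tumor arrays alone and 104 with the replicate block, and 16 to 1482 over single arrays left out. The cause was not tested. The signs of the uncalled tumor group differences of Ccr7, S1pr1, Itgb7 and Klf2 turned in 4, 7, 3 and 1 of 23 alternatives, and that of Ccr4 in control tumors against normal in 6 of 22.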
